A study of Mus musculus with 8 samples.

Results

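The transcripts of 10 genes that encode subunits of the CCR4-NOT and PAN deadenylase complexes were followed in input RNA and in RNA recovered with an antibody against the decapping co-activator DCP1A. The members were taken by name: Cnot1, Cnot2, Cnot3, Cnot4, Cnot6, Cnot6l, Cnot7, Cnot8, Pan2 and Pan3. All 10 were among the 23107 genes of the table, and all 10 passed the low-count filter that left 14667 genes for testing. The samples were mouse ovary, from the cortex at postnatal day 8, and comprised 4 input libraries and 4 libraries of RNA immunoprecipitated with DCP1A (RIP). No genotype, strain or treatment was named, both groups came from the same kind of tissue, and the labels do not say whether the libraries came from separate animals or pools. The p-values therefore measure the spread between these libraries, which may be technical. The question put by the study was which RNAs are bound by DCP1A in primary oocytes. Libraries made with a control antibody were not analysed here, so a value in RIP cannot be set against background binding.

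Deadenylation, the shortening of the poly(A) tail, is the usual first step of mRNA decay and comes before decapping. The PAN complex, in which PAN3 recruits the nuclease PAN2, trims long tails, and CCR4-NOT removes the rest. CCR4-NOT is built on the scaffold CNOT1 and carries a pair of nucleases, one of the CCR4 type (CNOT6 or CNOT6L) and one of the CAF1 type (CNOT7 or CNOT8), so the paralogs of each type take the same place in alternative complexes. In the oocyte, CNOT6L takes part in the clearance of maternal mRNA during meiotic maturation. DCP1A and deadenylated mRNA meet in cytoplasmic processing bodies. The values below are levels of the mRNAs of these subunits, not of the proteins.

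Libraries held 13098153 to 25757618 counts, of which the members took 10262 (RIP 1) to 41553 (input 3), or 0.0629% to 0.161%. The lowest single value of a member was 240 counts, for Cnot4 in RIP 1, so counting error was small beside the spread between libraries. Levels are given as CPM, the counts scaled to a common library size with TMM factors. They are compared between libraries and not between genes, since transcript lengths were not used. Several ovarian cell types were represented: all 10 oocyte markers and all 5 granulosa cell markers passed the filter. So did all 5 stroma, 5 surface epithelium and 4 endothelium markers. The summed oocyte markers lay at 1340 to 1970 CPM in input and 1310 to 1730 CPM in RIP. The summed stroma markers lay at 4000 to 6580 CPM in input and 4260 to 7920 CPM in RIP. The members' levels are thus those of mixed tissue and not of oocytes alone. Fewer cells of a type and less RNA per cell cannot be told apart in such bulk libraries. Of the 6 listed blood and immune markers 5 were in the table. The haemoglobin gene Beta-s was at 83.1, 284, 245.5 and 40.0 CPM in input and at 71.1, 127, 63.3 and 68.8 CPM in RIP. Csf1r lay at 8.18 to 27.3 CPM. Ptprc, Hba-a1 and Hba-a2 did not pass the filter, with at most 39, 3 and 1 counts in a library. The listed markers thus differed among themselves and do not settle whether every library held blood RNA.

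None of the 10 deadenylase subunit genes passed the test between RIP and input. Of all tested genes, 0.0409% passed (6 of 14667, all lower in RIP). The test was the quasi-likelihood test of edgeR, with p-values adjusted over all genes by the method of Benjamini and Hochberg and a threshold of 0.05. The members' adjusted p ran from 0.631 for Cnot4 to 0.954 for Cnot3. With an unadjusted p under 0.05 as the limit, 1 member was lower and 0 were higher, against 4.28% lower and 3.15% higher of all tested genes. By DESeq2 0 members passed, beside 56 of all genes. The unadjusted p by DESeq2 was under 0.05 for 2 members, both lower, beside 5.27% of all genes lower. With libraries 1 and 2 against 3 and 4 as a block in edgeR, 0 members passed and 5 were lower with an unadjusted p under 0.05, beside 7.25% of all genes, a grouping taken up because earlier results of these data showed it. The log2 fold changes of RIP over input were negative for 7 members and positive for 3, where 51.7% of all tested genes were negative. The members' median was -0.32, beside -0.02 over all tested genes. Without RIP 1 alone it was -0.17, beside -0.03. In no member did the RIP libraries lie all above or all below the input libraries, where 2.52% of tested genes had all RIP libraries below and 2.77% all above. The 95% intervals of all 10 members excluded a 2-fold higher level in RIP, and those of 5 (Cnot1, Cnot3, Cnot8, Pan2 and Pan3) excluded a level of 0.5-fold or less.

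**Figure D1:**
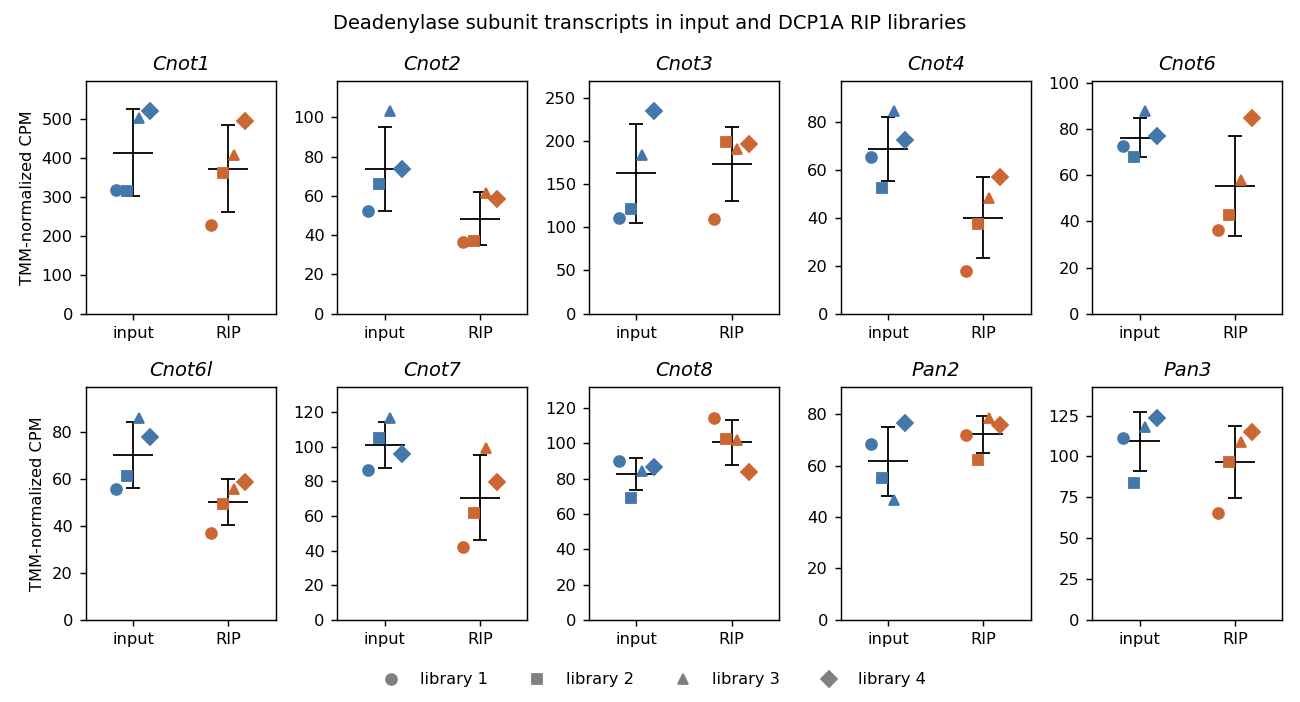
TMM-normalized CPM (linear axes from 0) of the 10 members in each library, with input in blue, RIP in orange, symbols for the library number, and mean and SD as black marks (n = 4 each). Every panel shows overlapping groups, and RIP 1 is the lowest of all 8 libraries in each panel except those of Cnot8 and Pan2.

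The scaffold and its partners differed among themselves. Cnot1, which encodes the scaffold on which the other subunits assemble (mm10 chromosome 8, 95718931 to 95808113), was at 319.5, 315, 505 and 521 CPM in input libraries 1 to 4 and at 227, 362, 408 and 496 CPM in RIP libraries 1 to 4. Input libraries 3 and 4 and RIP 4 were high and RIP 1 was low, with the groups overlapping over most of their range. The log2 fold change was -0.15 ± 0.28 (SE), and leaving out 1 library moved it to 0.03 (RIP 1), -0.02 (input 4), -0.03 (input 3), -0.26 (input 1 or input 2) or -0.31 (RIP 4).

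Cnot2 (chromosome 10, 116485160 to 116581900) encodes a subunit that pairs with CNOT3 on the scaffold. It was at 52.4, 65.9, 103 and 73.7 CPM in input and at 36.6, 37.2, 61.5 and 58.6 CPM in RIP. RIP 1 and RIP 2 were below all input libraries, while RIP 3 and RIP 4 lay above input 1. The log2 fold change was -0.61 ± 0.29 (edgeR adjusted p = 0.679), a 0.657-fold level with a 95% interval of 0.428 to 1.01, and it was -0.39 without input 3.

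Cnot3, the partner of Cnot2 in that module (chromosome 7, 3645247 to 3661109), was at 110.4, 121, 183 and 234 CPM in input and at 109.6, 199, 190.0 and 196 CPM in RIP. RIP 2 to RIP 4 were close together between the higher input libraries, and RIP 1 stood apart beside input 1. Its log2 fold change of 0.10 ± 0.29 was the nearest to 0 of the 10, and it turned negative without input 1 (-0.05) or input 2 (-0.02) and with libraries 3 and 4 alone (-0.12). The difference between Cnot2 and Cnot3 was not tested.

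Cnot4 had the lowest fold change of the members. It encodes a RING-type E3 ubiquitin ligase that binds the complex, and it is the one member without a part in the nuclease or its scaffold. It lies on chromosome 6 at 35022065 to 35133754. Its level was 65.6, 52.3, 84.5 and 72.4 CPM in input and 17.7, 37.4, 48.4 and 57.0 CPM in RIP. RIP 1 to RIP 3 were below all input libraries, and RIP 4 was above input 2 alone. The mean was 68.7 ± 13.4 CPM in input and 40.1 ± 17.0 CPM in RIP (SD, n = 4 each). The log2 fold change of -0.78 ± 0.33 had an unadjusted p of 0.0331 by edgeR's quasi-likelihood test and an adjusted p of 0.631 over all genes. Of all tested genes, 9.56% had a lower fold change. The median SE over all tested genes was 0.396, above that of Cnot4, so this share need not hold among genes of like level. It was -0.53 without RIP 1, the library with its lowest level, whereas libraries 1 and 2 taken alone gave -1.09 and libraries 3 and 4 gave -0.58. Over 21 other settings its adjusted p lay between 0.149 and 1.

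**Figure D2:**
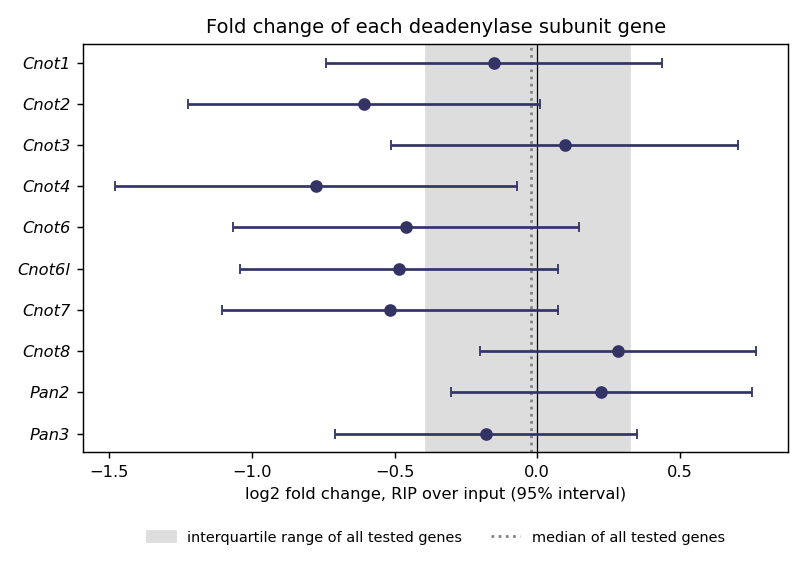
Log2 fold change of RIP over input for each member (points) with its 95% interval (bars), over the interquartile range of all tested genes (grey band, -0.39 to 0.33) and their median (dotted line). Cnot4 at -0.78 and Cnot2 at -0.61 lie farthest to the left, Cnot8 at 0.28 farthest to the right, and the interval of each member except Cnot4 includes 0. The band includes genes of lower level: the median SE was 0.396 over all tested genes and 0.23 to 0.33 over the members.

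The 2 genes for CCR4-type nucleases had nearly the same fold change. Cnot6 (chromosome 11, 49671497 to 49713401) was at 72.7, 67.7, 87.6 and 77.0 CPM in input and at 36.1, 42.8, 57.9 and 84.7 CPM in RIP. RIP 1 to RIP 3 lay below all input libraries and RIP 4 lay above all but input 3. Cnot6l (chromosome 5, 96070333 to 96164198), the paralog with a part in maternal mRNA clearance, was at 55.5, 61.0, 85.9 and 77.5 CPM in input and at 36.9, 49.3, 55.4 and 58.6 CPM in RIP. For Cnot6l too RIP 1 to RIP 3 lay below all input libraries, RIP 3 by a margin of under 0.1 CPM, and RIP 4 lay above input 1. The log2 fold changes were -0.46 ± 0.29 for Cnot6 and -0.48 ± 0.26 for Cnot6l. That of Cnot6 was -0.30 without RIP 1 and -0.74 without RIP 4. The ratio of Cnot6 to Cnot6l counts within a library, which needs no scaling between libraries, was 0.993 to 1.31 in input and 0.869 to 1.45 in RIP. The log2 ratio in RIP minus that in input was -0.05 ± 0.18 (SE, n = 4 each, exact two-sided permutation test, p = 0.771), and its sign turned without input 1 or without RIP 2.

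The 2 genes for CAF1-type nucleases had fold changes of opposite sign. Cnot7 (chromosome 8, 40492538 to 40515847) was at 86.3, 105, 117 and 95.7 CPM in input and at 41.8, 61.7, 99.0 and 79.7 CPM in RIP. RIP 1, RIP 2 and RIP 4 were below all input libraries, and RIP 3 was within the input range. Cnot8 (chromosome 11, 58092794 to 58118597), whose product takes the same place in the complex, was at 90.2, 69.2, 84.4 and 86.6 CPM in input and at 114.7, 102, 102 and 83.6 CPM in RIP. RIP 1 to RIP 3 were above all input libraries, and RIP 4 was below 3 of the 4 input libraries. The log2 fold change was -0.52 ± 0.28 for Cnot7 (edgeR adjusted p = 0.705) and 0.28 ± 0.23 for Cnot8 (0.799), the highest of the members. That of Cnot7 was -0.33 without RIP 1. The summed level of both genes was 174 to 201 CPM in input and 156 to 201 CPM in RIP, so the groups overlapped in the sum.

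The ratio of Cnot7 to Cnot8 counts was 0.957, 1.52, 1.39 and 1.11 in input libraries 1 to 4 and 0.365, 0.603, 0.973 and 0.954 in RIP libraries 1 to 4. RIP 1 and RIP 2 were well below all input libraries, while RIP 3 and RIP 4 lay close to input 1, the lowest input library, on either side of it. Mean log2 ratios were 0.29 ± 0.30 in input and -0.57 ± 0.67 in RIP (SD, n = 4 each). The difference of -0.86 ± 0.37 (SE) did not pass an exact two-sided permutation test (p = 0.0571, or 0.0856 after Benjamini-Hochberg adjustment over the 3 ratios tested). The smallest p that 4 against 4 libraries can give is 0.0286. Libraries 1 and 2 taken alone gave a difference of -1.36 and libraries 3 and 4 one of -0.36. Without RIP 1, the library with the lowest ratio, it was -0.57. How reads that match both paralogs were assigned is not given in the sources used here.

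**Figure D3:**
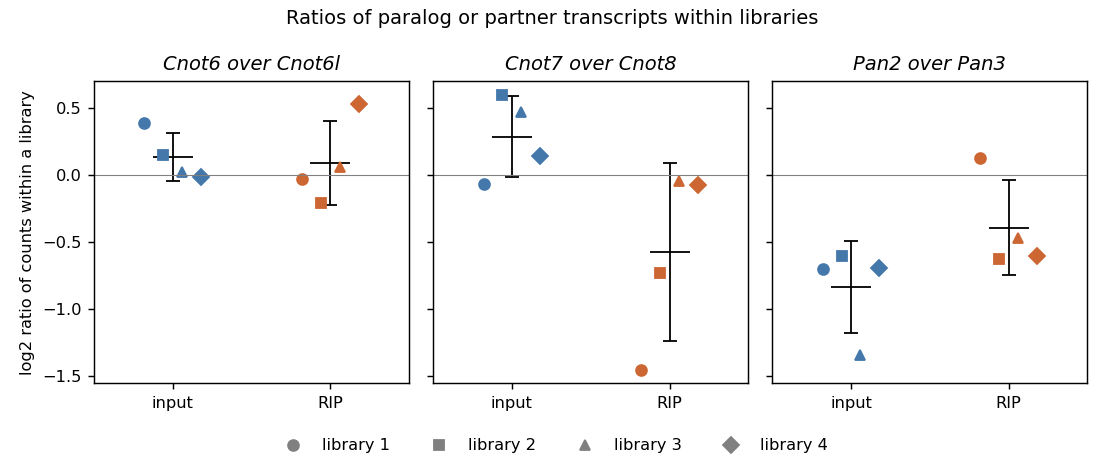
Log2 ratio of counts within each library for Cnot6 over Cnot6l, Cnot7 over Cnot8 and Pan2 over Pan3, with input in blue, RIP in orange, symbols for the library number, and mean and SD as black marks (n = 4 each). RIP 1 is the lowest for Cnot7 over Cnot8 (-1.45) and the highest for Pan2 over Pan3 (0.13), and the groups overlap in every panel.

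The PAN subunits had small fold changes. Pan2, the gene of the nuclease (chromosome 10, 128303333 to 128321358), was at 68.3, 55.1, 46.8 and 76.9 CPM in input and at 71.9, 62.4, 78.8 and 75.8 CPM in RIP. The RIP libraries spanned a narrower range than the input libraries, and RIP 3 was above all input libraries. Pan3, the gene of the adaptor that brings PAN2 to the tail (chromosome 5, 147426208 to 147548501), was at 111.0, 83.6, 118 and 124 CPM in input and at 65.5, 96.4, 109.0 and 115 CPM in RIP. Only RIP 1 lay outside the input range, below it. The log2 fold change was 0.23 ± 0.25 for Pan2 and -0.18 ± 0.25 for Pan3, and the adjusted p by edgeR was 0.851 and 0.889. Single libraries moved both values: Pan3 was at -0.03 without RIP 1, -0.11 without input 4 and -0.29 without input 2. Pan2 was at 0.12 without input 3 and 0.35 without input 4. The ratio of Pan2 to Pan3 counts was 0.615, 0.659, 0.396 and 0.621 in input and 1.10, 0.647, 0.723 and 0.661 in RIP. RIP 1, RIP 3 and RIP 4 were above all input libraries, RIP 4 by a small margin. The log2 ratio in RIP minus that in input was 0.44 ± 0.25 (SE, n = 4 each) and did not pass an exact two-sided permutation test (p = 0.0571, adjusted 0.0856). It was 0.27 without RIP 1 and 0.27 without input 3. The annotated span is 18 kb for Pan2 and 122 kb for Pan3. Relative to short genes, long genes were lowest in RIP 1 and highest in input 3 (below). The part of this in the ratio was not tested.

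Most members went up and down together across the libraries, whatever the group. Over the 45 pairs of members, Pearson's r of log2 CPM across the 8 libraries had a median of 0.642 and ran from -0.752 (Cnot6 with Cnot8) to 0.931 (Cnot2 with Cnot6l). Cnot4 was at 0.926 with Cnot6, 0.924 with Cnot6l and 0.909 with Cnot7. Cnot8 had a median r of -0.646 with the other members and Pan2 one of -0.219, while Cnot1, Cnot2, Cnot4, Cnot6, Cnot6l, Cnot7 and Pan3 had medians of 0.712 to 0.833 and Cnot3 one of 0.359. These correlations describe 8 libraries that share their scaling factors and differ in depth and group, and carry no test. The members' standardized log2 CPM, averaged over the 10, was lowest in RIP 1 (-1.21) and highest in input 4 (0.742) and input 3 (0.611). It was -0.061 in input 1, -0.36 in input 2, -0.382 in RIP 2, 0.305 in RIP 3 and 0.352 in RIP 4. RIP 3 and RIP 4 were thus above input 1 and input 2. The 10 most abundant genes of each library took 30.7%, 30.9%, 13% and 16.6% of counts in input libraries 1 to 4 and 32.0%, 25.5%, 23.5% and 16.1% in RIP libraries 1 to 4. This share was highest in RIP 1 and lowest in input 3, and its part in the members' levels was not tested.

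**Figure D4:**
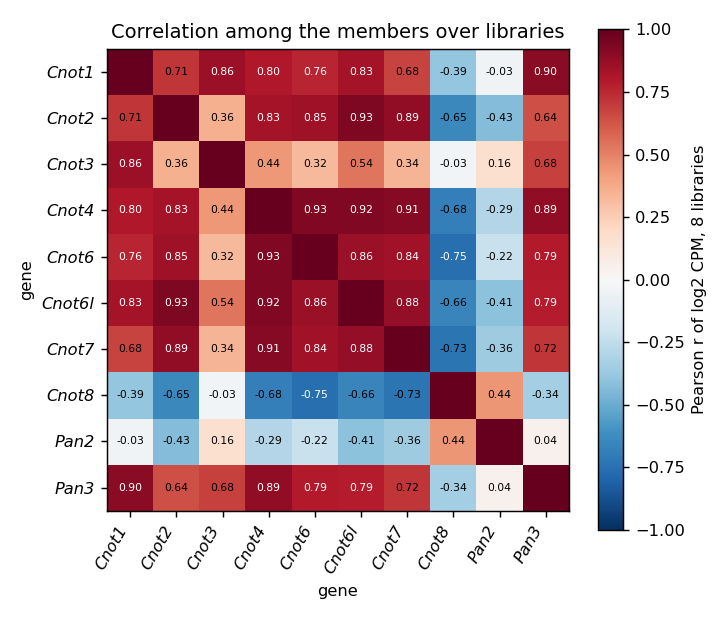
Pearson's r of log2 CPM over the 8 libraries for each pair of the 10 members, with red for positive and blue for negative values. A red group holds Cnot1, Cnot2, Cnot4, Cnot6, Cnot6l, Cnot7 and Pan3, and the rows of Cnot8 and Pan2 are mostly blue.

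The genes with the pattern most like the members' average were 4932438A13Rik (r = 0.986), Ppp6r3 (0.980), Celf2 (0.980), Hnrnph1 (0.976) and Tdrd1 (0.973), among 3974 other genes with a mean CPM at least that of the lowest member, over 8 libraries. Ppp6r3 encodes a regulatory subunit of protein phosphatase 6, Celf2 and Hnrnph1 encode RNA-binding proteins, and Tdrd1 encodes a germ granule protein. Each of these had its lowest level in RIP 1, at 91.2, 44.3, 33.1, 132.5 and 49.2 CPM. This follows from their choice, since the members' average was lowest in RIP 1, and is no separate result. None passed the test (lowest adjusted p by edgeR 0.751).

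Members with long annotated genes had a lower median fold change than members with short ones, though the ranges overlapped. The 6 members spanning 30 kb or more (Cnot1, Cnot2, Cnot4, Cnot6, Cnot6l and Pan3) had a median log2 fold change of -0.47 and were all negative, while the 4 shorter ones (Cnot3, Cnot7, Cnot8 and Pan2) had a median of 0.16 and only Cnot7 negative. Cnot7, at 23.3 kb and -0.52, was lower than 4 of the 6 long members (Cnot1, Cnot6, Cnot6l and Pan3). Spearman's rho between span and log2 fold change was -0.576 over the 10 members and -0.0874 over 12328 other tested protein-coding genes. Among these other genes the median was -0.07 for the 5466 of 30 kb or more and 0.03 for the 6862 shorter ones. The libraries themselves differed in this respect. The median log2 level of long genes relative to that of short genes, each set against the gene's own mean over the 8 libraries, was -0.175, -0.237, 0.348 and 0.276 in input libraries 1 to 4 and -0.403, -0.0917, 0.0277 and 0.188 in RIP libraries 1 to 4. RIP 1 was the lowest and inputs 3 and 4 the highest, as for the members' average level. The span and its limit of 30 kb were chosen after the members' values were seen, genes are not independent replicates, and the part of span in the members' values was not tested.

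**Figure D5:**
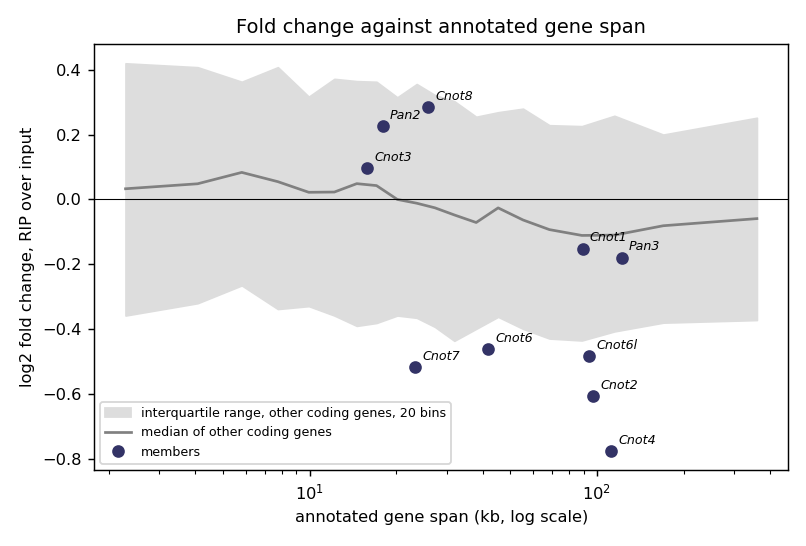
Log2 fold change of RIP over input against annotated gene span (log axis, kb) for the 10 members (labelled points), over the median (line) and interquartile range (band) of other tested protein-coding genes in 20 bins of span. Pan2, Cnot8 and Cnot3 lie above 0 at spans under 30 kb, while Cnot7 at 23.3 kb lies at -0.52. Cnot4 at 112 kb is the lowest point, and Pan3, the longest at 122 kb, lies at -0.18.

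The other genes of the pathway, listed by function, gave no call either. Of 26 listed genes 25 were tested and 0 passed after adjustment over all genes by edgeR. At an unadjusted p under 0.05, 3 were lower and 0 higher, where 4.28% and 3.15% of all tested genes were, and the median log2 fold change was -0.10. The signs counted below stand beside 51.7% negative among all tested genes. Among the other CCR4-NOT subunits, Cnot10 was at -0.35 ± 0.26 and Cnot11, listed under its older symbol D1Bwg0212e, was at 0.33 ± 0.26, and 3 of the 4 were positive. The RIP libraries of D1Bwg0212e (53.6 to 56.4 CPM) were all above the input libraries (29.3 to 52.2 CPM), as in 2.77% of all tested genes. Other deadenylases had a median of 0.36, with 4 of 5 positive, among them the mitochondrial enzyme gene Pde12 (0.61 ± 0.32) and Toe1 (0.64 ± 0.36). The poly(A)-binding protein gene Pabpc1, whose product coats the tail that the deadenylases remove, was at -0.94 ± 0.30 and had the lowest p of all 25 (edgeR adjusted p = 0.617). Its relative Pabpc1l was at 1.41 ± 1.02 with low levels in input (2.45 ± 2.62 CPM, SD) and RIP (6.51 ± 2.04 CPM). Of 5 partners of CCR4-NOT in repression, Ddx6 was at -0.52 ± 0.26 and Gigyf2 at -0.57 ± 0.40, with 4 negative.

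Genes of the nucleotidyltransferases, most of which lengthen tails and so oppose the deadenylases, had a median of -0.58, with 6 of 7 negative, 2 of them with an unadjusted p under 0.05, beside 51.7% and 4.28% of all tested genes. Tent2, listed as Papd4, encodes the cytoplasmic poly(A) polymerase also called GLD2. It was at 43.2, 48.4, 70.04 and 54.1 CPM in input and at 7.61, 20.7, 35.3 and 43.0 CPM in RIP, all RIP libraries lying below all input libraries, RIP 4 by a small margin, as in 2.52% of all tested genes. Its log2 fold change was -1.01 ± 0.42 (edgeR adjusted p = 0.625). Papola, the gene of the canonical nuclear poly(A) polymerase, was at -0.63 ± 0.27 (adjusted p = 0.641). As for most members, the lowest level of Papd4 was in RIP 1.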

How the data were processed

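The deposited table holds the authors' estimated counts (expected counts) for 23107 genes in 8 libraries, with up to 1.85% of values in a library not whole. The genome build was mm10, per the submitters' processing notes. Aligner, counter, annotation and strand setting were not given in the sources used here. The annotated spans of 8 of 10 members overlap those of other genes, by the RefSeq gene table of GRCm38.p6. Strand and exons were not considered in this count, and how reads in such overlaps were assigned is not known. Libraries were made from total RNA with a stranded SMARTer kit after a Magna RIP kit, per the labels' protocols. Estimated counts were rounded for the test, which had been planned for whole counts.

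All genes were fitted in R 4.3.3 with edgeR 4.0.16: filterByExpr (minimum count 10, minimum total 15), TMM, a robust quasi-likelihood fit of RIP against input without a block, and Benjamini-Hochberg adjustment over 14667 genes. The standard error is the size of the log2 fold change over the square root of F, and intervals use the fit's degrees of freedom. Ratios within libraries used counts plus 0.5. Alternatives used DESeq2 1.42.0, limma 3.58.1, other scalings and filters, blocks and fewer libraries. The fit was tested on simulated data of the RIP and input comparison (14667 genes), in which 50 genes at the members' levels were changed by each fold. It found 1 at 1.5-fold, 22 at 2-fold, 49 at 4-fold and 50 at 8-fold, beside 8 false calls. The folds were planted together in the same simulated set, and its libraries were drawn independently. Members and lists were chosen with earlier results of these data known. The naming rule took all members, up to 2 genes of lowest p of each pathway list, and the 5 genes most like the members' average. Coordinates are 1-based from the RefSeq table, and levels per transcript length were not computed. Other markers were counted as lists: 0 of 5 stroma, 5 surface epithelium, 4 endothelium and 2 blood and immune genes tested passed.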

Additional observations from a re-analysis of the deposited data

Results flagged for a closer look

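In 28 sets of 4 library values (each member's CPM, the 3 log2 ratios and the members' summed CPM, in each group), 2 had a library far from the others by Dixon's test at 95%, which flags about 1 in 20 by chance. Cnot3 was at 109.6 CPM in RIP 1, and the next RIP library was at 190.0 CPM. The log2 ratio of Pan2 to Pan3 was -1.34 in input 3, and the next input library was at -0.70.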

How the results depend on the processing

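Over 21 other settings, 0 members passed in any, and the members' median log2 fold change stayed negative, from -0.438 to -0.167, and below that of all genes. Cnot2, Cnot4, Cnot6, Cnot6l, Cnot7 and Pan3 kept a negative sign and Cnot8 and Pan2 a positive one in all 21. Of 210 member values 5 changed sign: Cnot1 was at 0.0264 without RIP 1, and Cnot3 at -0.0486 without input 1, -0.0191 without input 2 (up to 0.33 without input 4), -0.115 within libraries 3 and 4 and -0.0932 for RIP 2 to 4 against inputs 3 and 4, a setting chosen after seeing the data. For Cnot1 the lowest value without 1 library was -0.313. The cause was not tested.

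The number of genes called, 6 in all, was 56 by DESeq2, 55 with the replicate block, 55 with libraries 1 and 2 against 3 and 4 as a block, 27 within libraries 1 and 2, 16 for RIP 2 to 4 against inputs 3 and 4, and 4 to 17 without 1 library (15 without input 3, 17 without RIP 1). The deviations of same-numbered libraries all correlated positively, at 0.0915 to 0.178, and 4 of 8 libraries correlated best with their own number. How many would do so by chance was not computed, so the numbers neither establish nor exclude pairs. With the replicate block 0 members passed, and 4 were lower and 0 higher at an unadjusted p under 0.05, beside 6.16% of all genes lower. The difference in the log2 ratio of Cnot6 to Cnot6l changed sign within libraries 3 and 4 (0.288), for RIP 2 to 4 against inputs 3 and 4 (0.121), and without 1 library (range -0.197 to 0.0486). The levels per length could not be computed, since lengths in hand were gene spans. At this spread the simulated recovery was 22 of 50 for 2-fold differences and 1 of 50 for 1.5-fold ones. The same simulated set held 4-fold and 8-fold changes, and many true changes ease the adjusted threshold. In the real data 6 genes passed, and libraries may share shifts that the simulation lacked, so the real recovery may be lower. Differences of 2-fold may thus go undetected, and those of 1.5-fold mostly would.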
